A study of Mus musculus with 6 samples.

Results

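The genes described here are 35 interferon-stimulated genes that lie outside the Oas, Ifit, Ifi200, Trim30 and interferon-inducible GTPase families. The 35 members were chosen by name from this class of genes, with earlier results on peak presence and covered length in these same libraries known, so their values by group are a description and give no independent support for a difference. All 35 were found among 21889 genes of the RefSeq gene table, on 13 chromosomes. CUT&Tag, in which an antibody on chromatin recruits a transposase and the DNA cut nearby is sequenced, had been run on mouse group 2 innate lymphoid cells (ILC2s) of the colon. The medium held IL-33 and IL-25, which activate ILC2s, as well as IL-7 and IL-2, which sustain their growth, and the cells were sorted again before the assay. The cultures had received no further agent (Control), FK866, or FK866 together with succinate, with 2 libraries in each of the 3 groups. The sources used here give no strain, age, dose or time. They also name no antibody target, so a peak is a stretch where some unnamed target was enriched. Whether libraries of the same group were made from separate cultures or animals is not stated, so every p-value reflects only how far these samples spread, which may be technical.

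Type I and type III interferons act through receptors and JAK kinases on transcription factors that bind interferon-stimulated response elements (ISREs) in the promoters of target genes. Interferon-gamma acts mainly through another element, GAS. The target genes encode sensors of foreign nucleic acid, enzymes and GTPases that block steps of viral growth, and proteins that tune the response. FK866 inhibits NAMPT, the enzyme of the main NAD salvage route, and succinate is an intermediate of the tricarboxylic acid cycle.

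The 6 peak lists held between 40320 and 56361 peaks and covered between 39 and 43.8 Mb. The second FK866 plus succinate library had both the most peaks and the narrowest, with a median width of 528 bp against 616 to 737 bp in the Control and FK866 libraries. Read depth is unknown. All 12 ILC2 marker genes, Gata3, Il1rl1 and Il13 among them, had a peak in all 6 libraries. So did 4 of 6 T cell, 2 of 3 B cell, 2 of 3 ILC1 and NK cell and 1 of 3 ILC3 markers. The same held for 3 of 4 epithelial and 2 of 2 fibroblast markers, so a peak alone did not tell cell types apart. Of 5 myeloid markers none had a peak in every library, and Adgre1 and Siglech had none at all. The summed peak length at the myeloid markers was 0.537 and 0.618 kb in Control, 0 and 0.525 kb in FK866, and 0.765 and 1.11 kb in FK866 plus succinate. It was thus highest in the libraries in which the interferon-stimulated genes below were most widely covered, and its part in the results was not tested.

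Peaks were found at 34 of the 35 members. Ifi44, an interferon-induced cytoplasmic protein gene, had no peak within its span and 2 kb around it in any library. A peak was present in all 6 libraries at 31 members, while 64.1% of all genes had one in all 6. The other members were Rtp4 with a peak in 5 libraries, Mx1 in 3 and Phf11a in 2. Phf11a and Mx1 met the requirement of a peak in at least 2 libraries only through the FK866 plus succinate group, so their place among the 34 tested members already entails a difference and their counts below are no support for it. Summed over the members, peaks covered 76731 and 71695 bp in Control, 71385 and 73128 bp in FK866, and 82528 and 86349 bp in FK866 plus succinate. Both sums with succinate lay above the other 4, and all 34 members with a peak had one in each of these libraries.

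The sequences around the start sites are shown first, because the interferon elements in them mark where the response factors would bind. RefSeq promoters of GRCm38.p6, whose coordinates equal those of mm10, run from 250 bases before to 50 bases after each start and were matched for 26 members. No entry was matched for Rtp4, Mx1, Mx2, Usp18, Dhx58, Zbp1, Ifi27, Parp9 and Parp14. An ISRE core, searched as GAAANNGAAA and, on the other strand, TTTCNNTTTC, was found in 10 of the 26 members (38.5%), each at 1 of its start sites. Over all RefSeq promoters of the same length, 3.44% of 32851 held it, which is 3.99% of genes when a gene counts with any of its promoters. A GAS core, TTCNNNGAA, which reads the same pattern on both strands, was found in 6 of 26 members (23.1%), in 9.55% of all genes and in 8.3% of all promoters. It was found at Isg20, Ifi35, Bst2, Eif2ak2, Adar and Shisa5. A match of these letters is a description and not a bound site.

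Rsad2 and Phf11a are printed whole, 5′ to 3′ on the strand of the gene with the ISRE core in capitals. They are examples that combine an ISRE core with wider peaks in FK866 plus succinate at the start site itself. Bst2, Ddx60 and Ifih1, which also hold the core, likewise had their widest peaks over the start in both FK866 plus succinate libraries. Other members with the core did not. At Ddx58 and Eif2ak2 the peak over the start was narrowest in the second succinate library (2029 and 1539 bp). At Trim21 the first succinate library (1242 bp) lay below Control 2 (1266 bp), and Isg15 had no peak over its start. In Rsad2 the core began 120 bases upstream of the start, and in Phf11a 29 bases upstream.
Rsad2, chr12:26456403-26456702, minus strand: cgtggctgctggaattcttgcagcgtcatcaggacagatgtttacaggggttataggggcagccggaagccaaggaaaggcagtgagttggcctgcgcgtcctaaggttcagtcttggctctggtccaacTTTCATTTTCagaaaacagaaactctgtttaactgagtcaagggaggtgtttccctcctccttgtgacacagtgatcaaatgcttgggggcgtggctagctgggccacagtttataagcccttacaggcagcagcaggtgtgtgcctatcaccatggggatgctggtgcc
Phf11a, chr14:59297473-59297772, minus strand: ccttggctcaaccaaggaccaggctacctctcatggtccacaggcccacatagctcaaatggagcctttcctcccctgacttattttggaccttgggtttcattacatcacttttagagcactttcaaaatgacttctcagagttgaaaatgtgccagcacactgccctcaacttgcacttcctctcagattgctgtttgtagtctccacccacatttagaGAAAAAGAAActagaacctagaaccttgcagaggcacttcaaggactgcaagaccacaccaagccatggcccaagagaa

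The next 7 promoters carried the same core, in capitals with 15 bases or fewer either side, and are shown so that the elements can be compared. Isg15 held 3 overlapping cores, beginning between 78 and 66 bases upstream. Ddx60 held 2 separate cores, 53 and 19 bases upstream, Bst2 held 2 that overlapped, and in Trim21 the 2 cores lay 13 and 19 bases downstream of the start.
Isg15, chr4:156200860-156200911, minus strand: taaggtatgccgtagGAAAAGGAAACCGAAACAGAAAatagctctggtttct
Ddx58, chr4:40239799-40239838, minus strand: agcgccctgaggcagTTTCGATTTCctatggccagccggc
Ifih1, chr2:62646206-62646238, minus strand: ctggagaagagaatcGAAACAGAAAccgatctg
Ddx60, chr8:61928019-61928092, plus strand: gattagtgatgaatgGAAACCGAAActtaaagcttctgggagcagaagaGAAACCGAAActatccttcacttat
Bst2, chr8:71537572-71537617, minus strand: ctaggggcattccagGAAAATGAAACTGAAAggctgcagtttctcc
Eif2ak2, chr17:78882530-78882569, minus strand: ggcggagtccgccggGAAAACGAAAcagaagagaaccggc
Trim21, chr7:102565439-102565484, minus strand: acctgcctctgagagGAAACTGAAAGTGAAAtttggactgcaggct

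The remaining match was at the most downstream of 5 start sites of Shisa5. At least 1 start site lay inside a peak in all 6 libraries for 23 of the 26 members, although Znfx1 and Shisa5 have further start sites that did not. No start site lay in a peak of any library for Isg15 and Ifi44, and at Phf11a the start lay in a peak only in both FK866 plus succinate libraries. Members with an ISRE core had a median difference of 1.01 percentage points between FK866 plus succinate and FK866. Of these members 8 of 10 were wider, against 48.8% of all genes tested. Phf11a is among the 10 and entered the test only through the succinate libraries, so its place in the count is no support. The 15 tested members without it had a median of 1.18 points, and 13 of 15 were wider, so wider coverage was seen with and without the core in this window. Against Control the medians were 0.811 points with the core (8 of 10 wider) and 0.248 points without it (9 of 15), the opposite order. In that comparison 42.9% of all genes were wider.

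**Figure D1:**
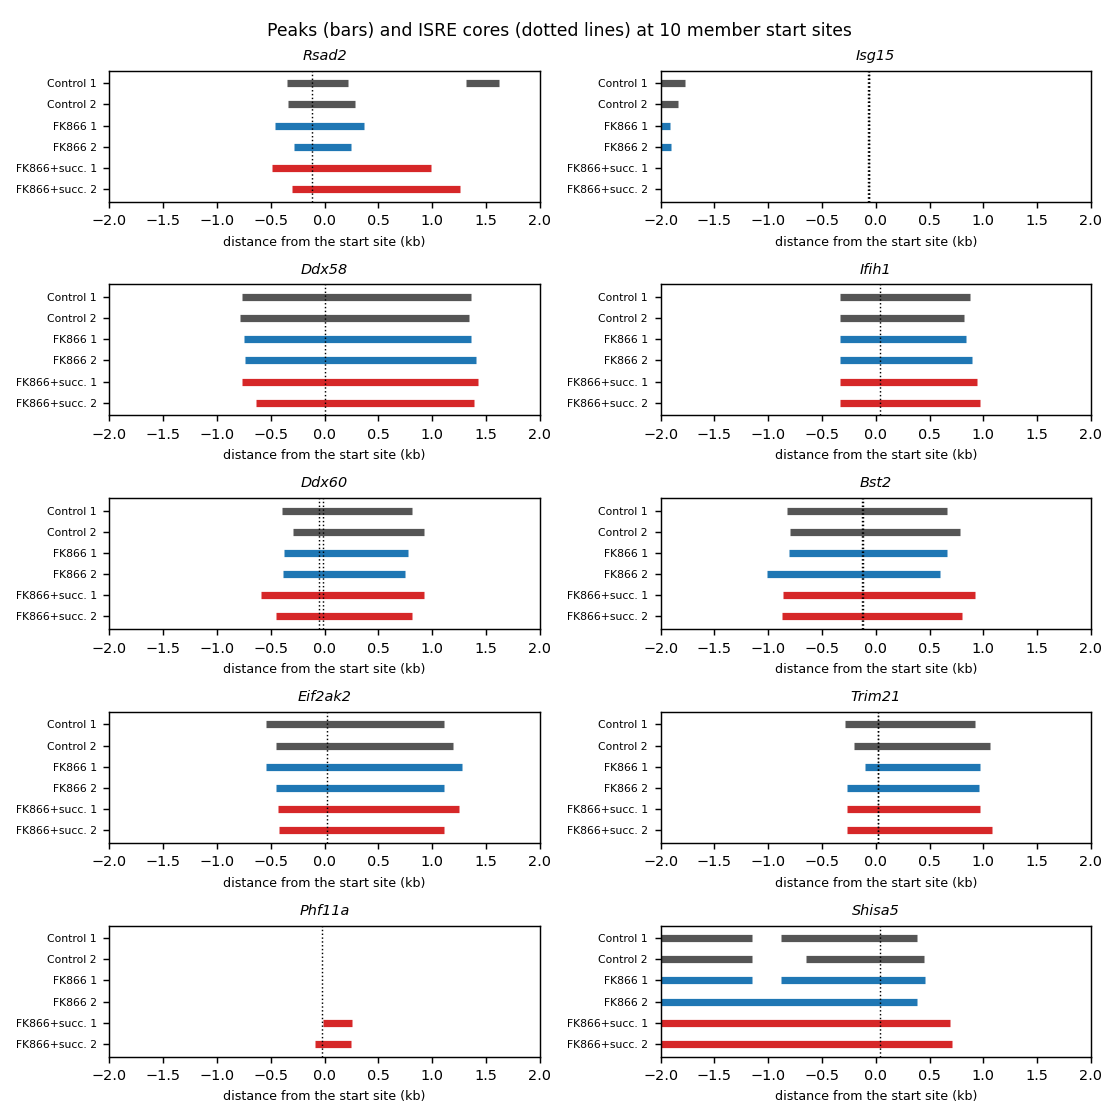
Peaks of each library (bars; grey Control, blue FK866, red FK866 plus succinate) within 2 kb of the RefSeq start site of the 10 members with an ISRE core, in the direction of transcription, in kb; dotted lines mark the cores. At Phf11a only the red libraries have a peak over the start, at Isg15 no library has one, and at Rsad2 the red peaks reach farther into the gene.

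Coverage was measured per gene as the percentage of its span plus 2 kb on either side that lay under peaks, and compared with limma across 15364 genes with a peak in at least 2 libraries. A second measure used the same length for every gene: the percentage of a 4-kb window around the lead site, which is the peak summit with the highest mean rank over all 6 libraries. Both measure the presence and width of peaks, not the height of signal. The lead-site window also allows members to be compared with each other. In Control its mean was highest at Znfx1 (76.1% ± 0.354, SD, n = 2) and Parp14 (74.8% ± 2.12), which did not differ beyond their spread. It was lowest at Phf11a (0%), Mx1 (5.19% ± 7.34), Rtp4 (8.89% ± 2.99) and Rsad2 (18.9% ± 4.53).

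FK866 alone was compared with Control first. The members showed no common direction: 13 were wider and 20 narrower in FK866, with a median difference of -0.0687 points beside -0.108 points over all genes tested. No member had an adjusted p under 0.05, against 0.0716% of all genes tested. At an unadjusted p under 0.05 there was 1 member (2.94%), Isg15, against 4.85% of all genes. Both FK866 libraries lay above both Control libraries at 5 members (14.7%; 12.8% of all genes) and below both at 5 (14.7%; 19.9% of all genes). These shares were near or below the background. The smallest adjusted p of a member was 0.978.

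The members that differed most without overlap in this comparison act at several points of the response. Isg15, a ubiquitin-like protein that is conjugated to other proteins, had 1058 and 1078 bp under peaks in Control, 949 and 944 bp in FK866, and 828 and 874 bp in FK866 plus succinate. The 3 groups did not overlap, and coverage was lowest with succinate. All of these peaks lay outside the gene span and can belong to neighbouring genes. In Control and FK866 they lay on both sides of it, and the peak on the high-coordinate side was cut by the edge of the 2-kb flank. The FK866 plus succinate libraries had no peak on that side within the flank, because their peak lay just beyond its edge. Its region, chr4:156202590-156204509, was covered by 1669 and 1555 bp with succinate, and by 1655 to 1853 bp in the other libraries. The order of the groups thus depended in part on where the flank ended. The difference from Control was -2.25 points (SE 0.776, adjusted p = 0.978, limma) in FK866, or -0.856 points with a 5 kb flank, and -4.02 points (SE 0.776, adjusted p = 0.32) in FK866 plus succinate, or -2.44 points with a 5 kb flank.

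Xaf1, an interferon-induced partner of the apoptosis inhibitor XIAP, had 2740 and 2296 bp in Control, 2077 and 2100 bp in FK866, and 2290 and 2496 bp in FK866 plus succinate. The FK866 libraries were the 2 lowest, but the difference from Control of -2.64 points came down to -0.0896 points without the flank. Ifi35, which binds the STAT partner Nmi, had 1949 and 1763 bp in Control, 1346 and 1762 bp in FK866, and 1709 and 1735 bp in FK866 plus succinate. The gap between Control 2 and FK866 2 was thus very small, and the sign of the difference from Control changed to 0.375 points in the lead-site window.

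Lgals3bp, a secreted glycoprotein that binds galectin-3, had 2310 and 2201 bp in Control, 2776 and 2327 bp in FK866, and 3021 and 2625 bp in FK866 plus succinate. Both treated groups lay above Control and overlapped each other. Dhx58, the RIG-I-like helicase LGP2, had 1777 and 1894 bp in Control, 2166 and 1982 bp in FK866, and 2077 and 2206 bp in FK866 plus succinate. It held the single member region gained in FK866, 1 of 127 regions (0.787%), against 1.41% of 72741 regions at all genes. A region counts as gained when both libraries of the first group and neither of the second have a peak in it, and as lost in the reverse case. The region, chr11:100694890-100695550 inside the gene span, was covered by 468 and 293 bp in FK866, by none in Control, and by 615 bp in the second FK866 plus succinate library alone. No member region was lost in FK866, against 1.96% of all regions. In the lead-site window Dhx58 differed by -3.55 points, the opposite sign.

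Succinate added to FK866 was then compared with FK866 alone. Here 29 of 34 members were wider and 5 narrower, with a median of 1.21 points, while the median over all genes tested was -0.0145 points and 48.8% of them were wider. The members' median was 0.238 points with peaks of adjusted p under 0.05 and 0.635 points with lists of equal length. Both FK866 plus succinate libraries lay above both FK866 libraries at 18 members (52.9%; 17.9% of all genes) and below both at 4 (11.8%; 21.8% of all genes). No member passed an adjusted p of 0.05, and 0.0716% of all genes did. The unadjusted p was under 0.05 at 7 members (20.6%), namely Rtp4, Rsad2, Mx1, Mx2, Ifih1, Samd9l and Phf11a, against 8.64% of all genes. In the lead-site window 26 of 34 members were wider, with a median of 1.79 points, against 29.3% of all genes and a median of -1.51 points. Of the 34, 7 members lay above the 95th percentile of all genes (6.34 points). No adjustment over the members alone was made, and the member count rests on a list chosen with these data known.

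**Figure D2:**
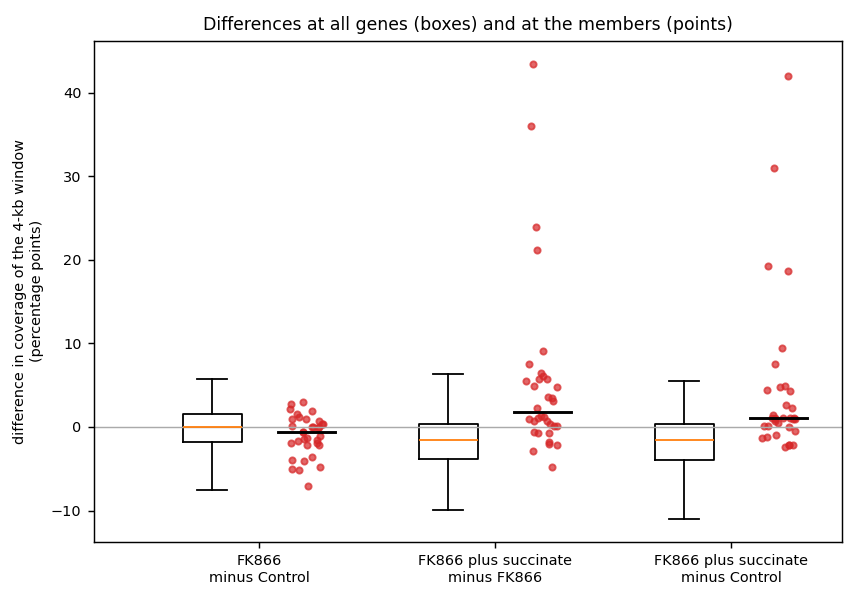
Difference in coverage of the 4-kb lead-site window, in percentage points, for the 3 comparisons; boxes give the median and quartiles of all genes tested with whiskers at the 5th and 95th percentiles, red points are the 34 tested members and the black line is their median. In both comparisons with FK866 plus succinate 4 members stand far above the rest, and the members' median lies above that of all genes (1.79 against -1.51 points over FK866).

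Mx2, Mx1, Rsad2 and Rtp4 held the largest differences in the lead-site window. Mx2, a dynamin-like GTPase that blocks viral nucleocapsids, is annotated with Mx1 as a transcribed pseudogene of the reference strain. It had 1193 and 1054 bp under peaks in Control, 775 and 1073 bp in FK866, and 2389 and 2338 bp in FK866 plus succinate. Both libraries with succinate thus stood above all of the other 4. The deposited peak of each of those 4 libraries ended before the gene span at position 97535823 or lower, whereas the peaks with succinate ran to 97537012 and 97537043 on chromosome 16, inside the span that starts at 97536081. In the lead-site window Mx2 went from 23.1% ± 5.27 in FK866 to 59.1% ± 0.902 in FK866 plus succinate (SD, n = 2), a difference of 36.0 points (SE 2.89, adjusted p = 0.0887, limma). Over the span plus 2 kb the difference was 4.99 points (SE 0.571, adjusted p = 0.195). With the 2-kb flank left out the difference was 3.82 points with an adjusted p of 0.00547, the single setting in which Mx2 passed the threshold. In that setting the Control and FK866 libraries are all at 0 and Mx2 enters the test only through the succinate libraries, so the call gives no support. Over all 15 alternatives its adjusted p ran from 0.00547 to 0.609.

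Mx1, its neighbour and a related GTPase active against influenza viruses, had 415 and 0 bp in Control, none in either FK866 library, and 816 and 1095 bp in FK866 plus succinate. The region chr16:97462130-97463357, over the high-coordinate end of the gene, was thus gained against FK866 and not against Control, where 1 library had a short peak. The lead-site difference from FK866 was 23.9 points (SE 4.84, adjusted p = 0.191).

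Rsad2, or viperin, which makes a nucleotide that stops viral RNA synthesis, had 882 and 626 bp in Control, 823 and 533 bp in FK866, and 1483 and 1566 bp in FK866 plus succinate. The 2 succinate libraries stood apart, and the other 4 overlapped. The lead-site difference from FK866 was 21.2 points (SE 3.52, adjusted p = 0.148). The adjoining gene Cmpk2, a mitochondrial nucleotide kinase often induced with Rsad2, had 1322 and 1382 bp in Control, 1260 and 1268 bp in FK866, and 1418 and 1359 bp in FK866 plus succinate. Its difference from FK866 was 0.846 points over the span (SE 0.737, adjusted p = 0.787), which is smaller than that of its neighbour; the difference between the 2 genes was not tested.

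Rtp4, a Golgi chaperone that also limits viral replication, did not come under the rule for naming genes, since its long annotated span makes the percentage small, and it was singled out after its values were seen. It had 271 and 440 bp in Control, 591 and 0 bp in FK866, and 2033 and 2041 bp in FK866 plus succinate. The last 2 were the highest, and FK866 2 had no peak. Its lead-site difference of 43.5 points from FK866 (SE 5.18, adjusted p = 0.131) was the largest of any member. Rtp4, Rsad2, Mx1 and Mx2 were wider with succinate than in FK866 and than in Control in all 15 alternatives tried for each. The alternatives reuse the same 6 libraries, and these genes were picked out for their large differences, so this gives no independent support. In addition, Mx1, and Mx2 without the flank, entered the test only through the succinate libraries.

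**Figure D3:**
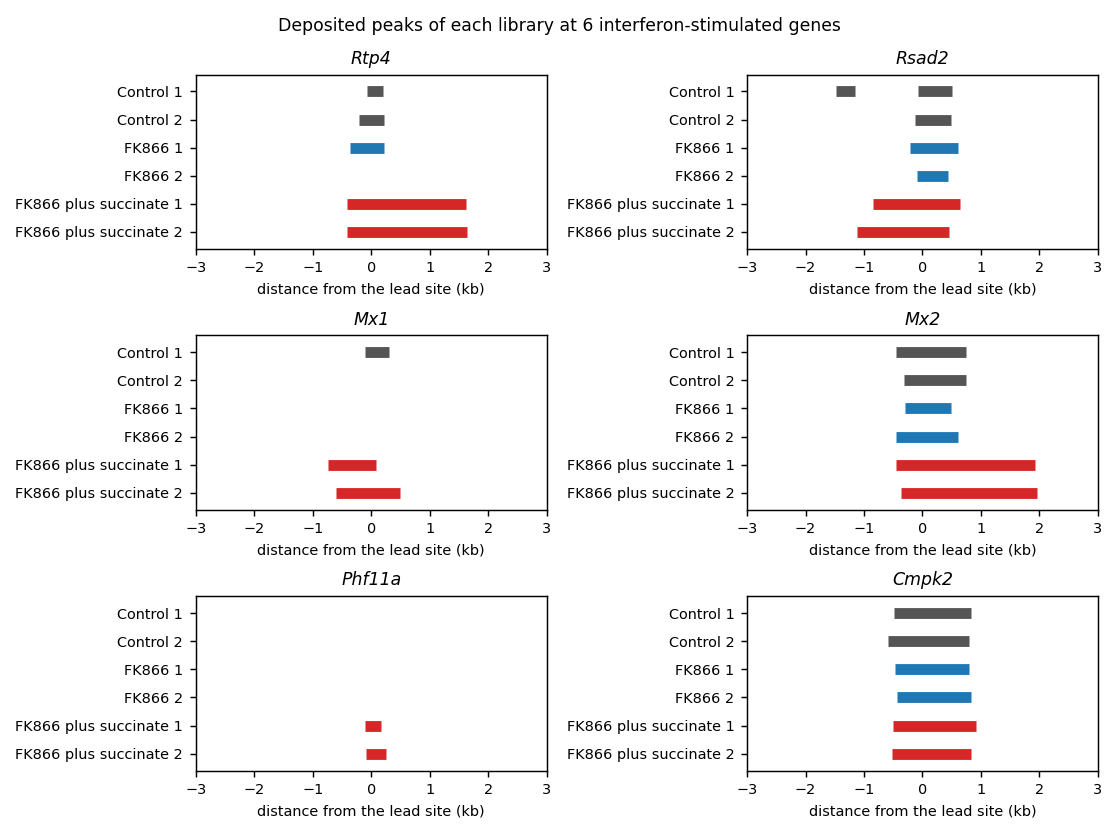
Deposited peaks (bars) of the 6 libraries at Rtp4, Rsad2, Mx1, Mx2, Phf11a and Cmpk2, by distance from the lead site in kb, positive toward higher coordinates. The FK866 plus succinate peaks (red) are wider at the first 4 genes or are present where FK866 (blue) has none, while at Cmpk2 all 6 libraries look alike (1260 to 1418 bp).

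Phf11a, a PHD finger gene induced by interferon, had no peak in Control or FK866 and 273 and 884 bp in FK866 plus succinate. The region over its start, chr14:59297264-59297608, was covered by 273 and 331 bp in these libraries. The rest of the 884 bp came from 2 weak peaks of the second library. Isg20, an RNA exonuclease, had 2028 to 2101 bp in Control, 2032 to 2744 bp in FK866 and 2421 to 2464 bp in FK866 plus succinate. Bst2, or tetherin, which holds virions at the cell surface, had 1494 and 1584 bp in Control, 1468 and 1605 bp in FK866, and 1783 and 1674 bp in FK866 plus succinate, without overlap between succinate and the rest. Samd9l, which restricts poxviruses, ran from 2258 to 3201 bp in the Control and FK866 libraries and had 4011 and 3415 bp with succinate. The region over its start was covered by 2346 and 2263 bp with succinate and by 2144 to 2377 bp without it. Its lead-site window differed from FK866 by 1.14 points, so most of the added length lay away from the lead peak. Zbp1, a sensor of Z-form nucleic acids that triggers cell death, ran from 1997 to 2322 bp without succinate and from 2177 to 2763 bp with it, with overlap.

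Ifih1 (MDA5), a sensor of long double-stranded RNA, had 1764 and 1699 bp in Control, 1819 and 1691 bp in FK866, and 2572 and 2120 bp in FK866 plus succinate, a difference of 1.08 points from FK866 (SE 0.393, adjusted p = 0.562). Its lead-site window differed by only 2.31 points, so most of the added length lay away from the lead peak. Ddx58 (RIG-I), the sensor of RNA with a 5′ triphosphate, ran from 2118 to 2153 bp in Control and FK866 and had 2198 and 2356 bp with succinate. The 2356 bp of the second succinate library were a peak of 2029 bp over the start and a separate weak peak of 327 bp. In the lead-site window Ddx58 differed by -0.55 points from FK866 and by -0.487 points from Control, the opposite sign. Ddx60, a helicase linked to RIG-I signalling, ran from 1138 to 1217 bp without succinate and had 1516 and 1266 bp with it. Eif2ak2 (PKR), the kinase that stops translation on double-stranded RNA, had 1651 and 1646 bp in Control, 1824 and 1929 bp in FK866, and 1948 and 2479 bp in FK866 plus succinate. The 3 groups of Eif2ak2 did not overlap, and part of the last step was a gained region inside the gene, chr17:78874685-78875183, with 263 and 333 bp. The region over its start did not follow this order, with 1685 and 1539 bp with succinate and 1571 to 1824 bp in the other libraries. In the lead-site window Eif2ak2 differed by -2.14 points from FK866 and by -0.912 points from Control, the opposite sign. Adar, which edits adenosines in double-stranded RNA and keeps such RNA from the sensors, had 4429 and 4396 bp in Control, 4636 and 4638 bp in FK866, and 4623 and 4495 bp in FK866 plus succinate. Within Adar peaks moved in position more than in total. Regions at chr3:89720687-89721495 and chr3:89747711-89748604 were lost against FK866, and chr3:89742577-89743382 was gained with 302 and 806 bp.

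Of the helicases and ubiquitin ligases that act downstream, Helz2 and Trim25 came under the naming rule. Helz2, a nuclear helicase and coactivator, had 3028 and 2016 bp in Control, 1932 and 2269 bp in FK866, and 2874 and 2740 bp in FK866 plus succinate, 3.83 points above FK866 (SE 2.05, adjusted p = 0.687). The difference was 0.0569 points with peaks of adjusted p under 0.05 and 0.721 points with lists of equal length. Its values overlapped with Control through Control 1. A region inside the gene, chr2:181239227-181239900, was covered by 511 and 674 bp with succinate only. Trim25, a ligase that promotes RIG-I signalling, had 2902 and 1896 bp in Control, 1885 and 2701 bp in FK866, and 2933 and 3914 bp in FK866 plus succinate, 4.54 points above FK866 (SE 2.27, adjusted p = 0.673). Its lead-site window differed by 0.338 points, the difference was 0.0542 points with peaks of adjusted p under 0.05, and the gap between Control 1 and the first succinate library was small. Trim21, a ligase that recognises antibody-coated virus, ran from 1078 to 1266 bp without succinate and had 1242 and 1352 bp with it. Znfx1, a helicase that senses RNA at mitochondria, had 4175 and 4094 bp in Control, 4451 and 3070 bp in FK866, and 3288 and 4564 bp in FK866 plus succinate, with overlap between all groups. A region inside Znfx1, chr2:167047982-167049015, was gained against FK866 but also had 338 bp in Control 2.

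Parp9 and Dtx3l, whose products form a complex that modifies histones, share the region between them. Parp9 had 2519 and 2076 bp in Control, 1987 and 2689 bp in FK866, and 2532 and 4136 bp in FK866 plus succinate. FK866 and FK866 plus succinate overlapped, and the high value came from the second succinate library. The region chr16:35952364-35952876 inside Parp9 was covered by 362 and 272 bp with succinate only. Dtx3l ran from 1987 to 2837 bp and Parp14, a related ADP-ribosyltransferase, from 3166 to 3615 bp over the 6 libraries, without separation of succinate from FK866.

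Over the span plus 2 kb, 4 members lay lower in both FK866 plus succinate libraries than in both FK866 libraries: Isg15, Adar, Usp18 and Sp100. In the lead-site window 4 members did so (11.8%; 36.7% of all genes), namely Isg15, Usp18, Znfx1 and Lgals3bp. Adar differed there from FK866 by 5.7 points, the opposite sign to its span difference of -0.181 points. Usp18, which removes Isg15 from proteins and dampens the interferon receptor, had 1991 and 1990 bp in Control, 2329 and 2460 bp in FK866, and 2291 and 2093 bp in FK866 plus succinate. Its order was thus FK866 highest and Control lowest. Sp100, a nuclear body protein with several isoforms, had 7471 and 7111 bp in Control, 7875 and 6842 bp in FK866, and 6099 and 5409 bp in FK866 plus succinate, a difference of -2.51 points from FK866 (SE 0.992, adjusted p = 0.591). Its lead-site window differed by -0.662 points. Shisa5, an endoplasmic reticulum protein linked to cell death, lost the region chr9:109049853-109050535 against both other groups, with 561 and 620 bp in Control and 602 and 537 bp in FK866. Its total remained between 7443 and 7927 bp in all 6 libraries. The other members, Ifi27, Herc6, Nmi and Epsti1, ran from 666 to 1512 bp, from 1135 to 1971 bp, from 1548 to 2785 bp and from 1034 to 1388 bp. Of these, Ifi27 and Epsti1 had both succinate libraries above both FK866 libraries.

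**Figure D4:**
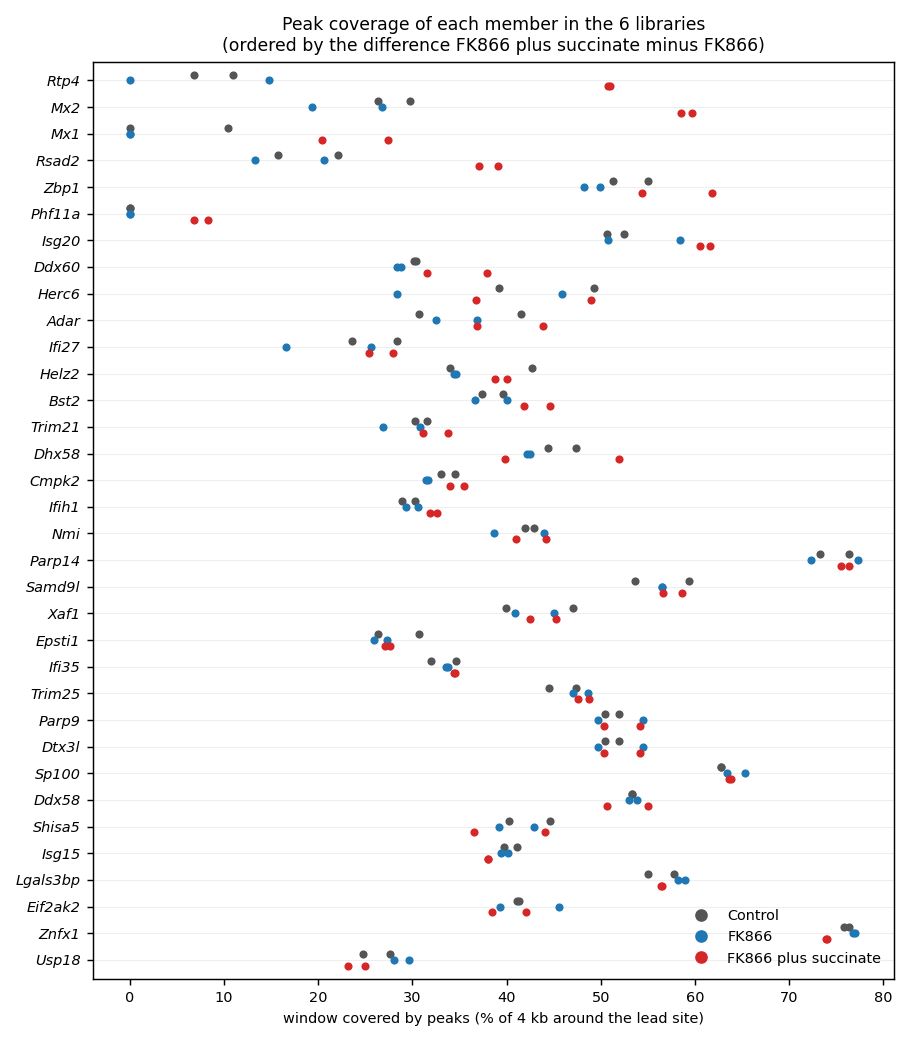
Coverage of the 4-kb lead-site window, in percent, of each of the 34 members with a peak, 1 point per library, ordered by the difference FK866 plus succinate minus FK866. The first 4 genes (Rtp4, Mx2, Mx1, Rsad2) have both red points well to the right of the blue and grey ones. Toward the foot of the plot Usp18, Znfx1, Lgals3bp and Isg15 have both red points to the left of both blue ones.

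At the level of regions, 7 of 127 member regions (5.51%) were gained and 3 (2.36%) were lost in FK866 plus succinate against FK866, beside 2.62% and 1.7% of all regions. With 2 libraries a group such presence calls have no test. The gained regions lay at Znfx1, Helz2, Adar, Phf11a, Parp9, Mx1 and Eif2ak2, and the lost ones at Adar (2 regions) and Shisa5. When the 6 lists were set to the length of the shortest, 3 regions were gained, and with peaks of adjusted p under 0.05 only 2. For these settings the share of all regions gained was not taken. Of the 127 regions 61 were present in a single library, 19 of them in the second succinate library, which had the longest list. These shares (48% and 31.1%) were near those of all regions (47.2% and 32.4%).

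FK866 plus succinate was last compared with untreated Control, with which the previous comparison shares its succinate libraries. Here 25 of 34 members were wider, with a median of 0.904 points, against 42.9% of all genes and a median of -0.132 points. Both succinate libraries lay above both Control libraries at 19 members (55.9%; 13.4% of all genes) and below both at 3, Isg15, Ifi35 and Sp100 (8.82%; 24.5% of all genes). In the lead-site window the members above both numbered 11 (32.4%; 8.03% of all genes). No member passed an adjusted p of 0.05 (0.156% of all genes did), and 7 had an unadjusted p under 0.05 (20.6%; 9.29% of all genes). These were Rtp4, Rsad2, Mx1, Mx2, Ifih1 and Phf11a, which were higher with succinate, and Isg15, which was lower. Regions gained numbered 5 of 127 (3.94%; 2.39% of all regions), at Helz2, Adar, Phf11a, Parp9 and Eif2ak2, and 1 was lost, at Shisa5 (0.787%; 2.05% of all regions).

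The differences from Control were of similar size to those from FK866 at Rtp4, Rsad2, Mx1 and Mx2. Over the span plus 2 kb they were 4.35 points at Rsad2 (SE 0.875, adjusted p = 0.335, limma) and 4.30 at Mx2 (SE 0.571, adjusted p = 0.197). Lgals3bp also differed from Control by 4.30 points (SE 1.67, adjusted p = 0.548), but from FK866 by 2.05 points with overlap. In the lead-site window Rtp4 differed by 42.0 points (adjusted p = 0.115), Mx2 by 31.0 (0.102), Rsad2 by 19.3 (0.154) and Mx1 by 18.7 (0.233). Lgals3bp differed there by 0.0875 points, so its added length lay away from its lead peak, and by 0.0265 points over the span with peaks of adjusted p under 0.05. Mx2 passed without the flank (3.82 points, adjusted p = 0.00587), where it again enters only through the succinate libraries. Phf11a passed when peaks were limited to an adjusted p under 0.05 (1.23 points, adjusted p = 0.0403), where it too entered only through the succinate libraries, so neither call gives support.

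The genes that act upstream of the members went in both directions in each comparison. Of 37 receptors, kinases, STATs, interferon regulatory factors, sensors and adaptors, 34 had a peak, and Ifnb1, Ifng and Tlr7 had none in any library. Between FK866 plus succinate and FK866, 18 of the 34 were wider and 16 narrower, with a median of 0.125 points (48.8% of all genes were wider). In FK866 against Control 11 were wider and 23 narrower (41.9% of all genes were wider). In FK866 plus succinate against Control 15 were wider and 19 narrower (42.9% of all genes were wider). None passed the adjusted threshold in any of the 3 comparisons. An unadjusted p under 0.05 (limma) was found at 2 of the 34 in FK866 against Control, beside 4.85% of all genes. It was found at 5 in FK866 plus succinate against FK866 (8.64% of all genes) and at 5 in FK866 plus succinate against Control (9.29%). Tlr9, the endosomal receptor for CpG DNA, had 923 and 1306 bp in Control, 1392 and 1839 bp in FK866, and 389 and 539 bp in FK866 plus succinate. It was highest in FK866 and lowest with succinate (-13.9 points against FK866, SE 2.52, adjusted p = 0.322). Irf8, a lymphoid and myeloid interferon regulatory factor, had 2979 and 1869 bp in Control, 1512 and 1887 bp in FK866, and 3353 and 3146 bp in FK866 plus succinate, 6.37 points above FK866 (adjusted p = 0.477). Stat2, the interferon signal transducer, had 2551 and 1876 bp in Control, 2382 and 2751 bp in FK866, and 3255 and 3810 bp in FK866 plus succinate, 5 points above Control (adjusted p = 0.445). In the lead-site window Stat2 differed from Control by -0.463 points, the opposite sign, and Irf8 differed from FK866 by 1.21 points. Tlr9 kept its direction there, at -28.8 points from FK866. Ticam1, the adaptor of TLR3, had 2884 and 2542 bp in Control, 2335 and 1964 bp in FK866 and 2275 and 3021 bp in FK866 plus succinate, a difference of -4.98 points in FK866 against Control (adjusted p = 1).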

How the data were processed

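Peak lists of 6 CUT&Tag libraries were used. The submitters' processing notes name cutadapt 1.9, Bowtie2 2.5.0 and the build mm10; no source used here names the peak caller. The authors deposited, for each peak of each library, a score, a fold (ratio) over background, and a -log10 p and -log10 q. These deposited values belong to 1 library and were used only to rank or filter peaks within a list (the lead site uses the mean of such ranks over the 6 lists). Read counts were not used, so depth and counting intervals are unknown. Peaks on chromosomes 1 to 19, X and Y were kept.

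Gene spans came from the RefSeq table of GRCm38.p6, with 21887 protein-coding genes plus Mx1 and Mx2; it gives no exons. Covered length within each span and 2 kb on either side was taken with Python 3.11.15, pandas 2.3.3 and numpy 2.4.6. Percentages of genes with a peak in at least 2 of 6 libraries were fitted with limma 3.58.1 (lmFit, eBayes with trend) in R 4.3.3, all 6 libraries in 1 fit, with Benjamini-Hochberg adjustment over all 15364 genes at 0.05. The code was tested on simulated data. Peaks sharing at least 1 bp were merged into regions. Promoter sequences came from RefSeq (GRCm38.p6), and figures were drawn with matplotlib 3.10.9.

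The members, gene lists and tests were chosen with earlier results of these data known. Genes named with every library's value were those with a lost or gained region, the 5 members with the largest difference without overlap in each comparison, and any past the threshold; of the signalling genes, those without a peak and the extremes. Others are named with ranges or for contrast, chosen after their values were seen. Alternatives changed the flank, window, peak threshold, list length, overlap, scale, shrinkage, normalization, replicate block and library set. Same-numbered libraries did not deviate together (correlations of 0.00645, -0.0585 and 0.0216 over 15364 genes), so the numbers were not treated as pairs.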

Additional observations from a re-analysis of the deposited data

How the results depend on the processing

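With 2 libraries a group and no read depth, only peak presence and width could be compared. The number of all genes past the threshold (11 in FK866 minus Control, 11 in FK866 plus succinate minus FK866, 24 in FK866 plus succinate minus Control) was 0 in all 3 comparisons with the replicate block, with log2 covered length, without the trend, in the lead-site window and with any single library left out. It was 5 with quantile normalization and 3 without the flank for FK866 minus Control. For FK866 plus succinate minus FK866 it was 20 without the flank, 19 with peaks of adjusted p under 0.05 and 4 with a 5 kb flank, and for FK866 plus succinate minus Control 49 with peaks of adjusted p under 0.05. Members past it numbered 0, except 1 without the flank in both comparisons with succinate (Mx2) and 1 with peaks of adjusted p under 0.05 against Control (Phf11a), both of which enter those tests only through the succinate libraries.

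The members' median for FK866 minus Control was -0.569 in the lead-site window and -0.373 to 0.00312 with a library left out. For FK866 plus succinate minus FK866 it was 1.79 in the lead-site window, 0.238 with peaks of adjusted p under 0.05, 0.635 with lists of equal length and 0.691 to 1.52 with a library left out, lowest without FK866 plus succinate 2. Against Control it was 1.06 in the lead-site window, 0.276 and 0.483 in other settings, and 1.4 with a 5 kb flank. With a library left out it ran from 0.615 to 1.38, highest without Control 1. Ifi35 in FK866 minus Control turned to 0.375 in the lead-site window, 0.105 with peaks of adjusted p under 0.05 and 0.224 with equal lists; Dhx58 turned to -3.55 and -1.06 in the lead-site window and with peaks of adjusted p under 0.05.

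Leaving a library out loosens presence calls by construction, since 1 library then stands for a group. The share of all regions lost or gained was not taken in these settings. The region counts that follow are therefore not a result about the members. In FK866 minus Control, regions lost were 1 with a 5 kb flank and 1 to 16 with a library left out. Regions gained were 0 with 50% of the region required to be covered, with peaks of adjusted p under 0.05 or with equal lists, and 2 to 11 with a library left out. In FK866 plus succinate minus FK866, regions lost were 1 at 50%, 1 with peaks of adjusted p under 0.05 and 4 to 10 with a library left out; regions gained were 2, 3 with equal lists and 8 to 27. Against Control, regions lost were 2 with peaks of adjusted p under 0.05, 3 with equal lists and 2 to 17 with a library left out; regions gained were 8 at 50%, 2 with equal lists and 6 to 27. In settings added after the data were seen, members above both in FK866 minus Control were 3 with equal lists (15.3% of all genes) and 5 to 12 with a library left out (25.4% to 30.1%), and those below both 2 without the flank (19.2%) and 9 to 16 (33.5% to 43.7%). Members below both in FK866 plus succinate minus FK866 were 2 without the flank (21.5% of all genes) and 4 to 8 with a library left out (34% to 40.9%). Against Control, members above both were 11 in the lead-site window (8.03%) and those below both 1 without the flank (24.3%) and 4 to 7 with a library left out (36.1% to 44.6%). The members above both FK866 libraries were 15 (44.1%; 8.53% of all genes) with peaks of adjusted p under 0.05, 15 (44.1%; 11.5%) with equal lists and 16 (47.1%; 8.48%) in the lead-site window. The causes of these shifts were not tested.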
